A study of Homo sapiens with 12 samples.

Results

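Introns longer than 300 nucleotides (nt) that the authors' event table lists as retained were examined in AsPC-1 cells, an established human line from pancreatic ductal adenocarcinoma. An intron was taken when its length, counting both ends, was over 300 nt and when intron coverage plus spliced reads averaged at least 20 per library. This gave 2433 introns of the 5334 retention events in the table. Another 389 introns over 300 nt had too few reads, and 2105 introns of up to 300 nt had enough reads and served for comparison. The 12 poly(A)-selected libraries form 4 groups of 3 replicates (A, B and C): siControl or siARNT cells, each kept at 21% O2 (normoxia) or moved to 1% O2 for 24 h (hypoxia). siControl is a scrambled siRNA, and siARNT is an siRNA against ARNT, the partner that the HIF alpha subunits need to bind DNA and that the aryl hydrocarbon receptor also uses. All cells were transfected in plate wells with Lipofectamine RNAiMAX, divided on the next day and harvested 48 h after transfection, so the siControl groups carry the transfection too. The labels do not say whether a letter marks the same well in the groups, and p-values measure only the spread between these samples, from 1 cell line and 1 siRNA name.

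Intron retention leaves an intron in an otherwise processed RNA. Such RNA may stay in the nucleus, be degraded by nonsense-mediated decay when the intron brings a stop codon into the reading frame, or be spliced later. Genes of splicing factors are well known for retained or detained introns, through which many of them limit their own output. Percent spliced in (PSI) is here the mean read depth over the intron as a share of that depth plus the reads spliced across it. A PSI of 100% thus means that no such spliced read was counted. In bulk RNA, retention in all cells and full retention in some cells cannot be told apart, and neither can unspliced precursor and mature RNA that keeps the intron.

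The ends of introns named in the results are shown first. Each donor line holds the last 10 exon bases and the first 20 intron bases, and each acceptor line the last 20 intron bases and the first 10 exon bases, 5′ to 3′. Capitals mark the first and the last 2 bases of the intron. The sequences come from GENCODE 29 transcripts that contain the intron within an exon. CDCA7, ANKRD49 and QKI fell with siARNT in hypoxia, RPL10 had the lowest adjusted p, VMP1 was higher in hypoxia by coverage, DDX5, RBM39 and OGT are well covered introns of the gene lists below, and EEF1A1 is an event inside an exon with PSI near 100%.
CDCA7 donor: ctccgactcaGTaagtaccagttcttgttt
CDCA7 acceptor: cttatacgtgctttgtttAGcaatcaagga
ANKRD49 donor: aaaaaatcggGTaaaaaaaaaaattacaga
ANKRD49 acceptor: tttcttttttttcttctcAGcttaccacag
QKI donor: ggtgtattagGTaagttcttctccccatgg
QKI acceptor: ggtaattgcaatttaactAGgtgcggtggc
RPL10 donor: ggtgtccctgGTaagtagtggaagagcccc
RPL10 acceptor: cttttcttctccctacctAGccctggaggc
VMP1 donor: cacaccacagGTaagactttaatccggttt
VMP1 acceptor: ttctgcatttatttctacAGggagaaaact
DDX5 donor: agagggctagGTtagtacaaactcgcattc
DDX5 acceptor: cacactgcaacaccttacAGatgtggaaga
RBM39 donor: ttacaagaagGTgagaaaaaacatgtcggt
RBM39 acceptor: cttctatcaaccctgcttAGgatgagaaca
OGT donor: agaagccaagGTaggtgtttgatagaacac
OGT acceptor: tttcattaacccctcctaAGgcatgttatt
EEF1A1 donor: aaagctgagcGTgaacgtggtatcaccatt
EEF1A1 acceptor: ccaccctacagccagaagAGatatgaggaa
All 9 begin with GT and end with AG. The EEF1A1 event was placed only inside an exon, and the placement of its reads is uncertain (below). In GRCh38 the CDCA7 intron lies at chr2:173363896-173364794, the QKI intron at chr6:163563720-163566720, the RPL10 intron at chrX:154399397-154399802 and the OGT intron at chrX:71544636-71547906, each an intron between coding exons of some transcript and inside an exon of another. The ANKRD49 intron was placed at chr11:94496952-94498070 by its length, between coding bases, and a second way of placing it gave another position. The coordinates in the event table are in a build that the table does not name, and only 13 of 1888 placed introns had the same coordinates there and in GRCh38, so introns were placed through the host gene's ID and the lengths of the intron and its exons.

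Total gene counts ran from 38525512 to 84337166 per library. ARNT, the siRNA target, stood at 62.4 ± 1.53 (normoxia) and 69.1 ± 3.81 (hypoxia) CPM (counts normalised to library size) with siControl, and at 13.4 ± 0.56 and 15.3 ± 1.04 with siARNT (SD, n = 3). All 8 epithelial markers listed had enough reads to be tested, with KRT8 at 1180 to 3460 CPM and EPCAM at 794 to 1040 CPM in the 12 libraries. KRT7 was the lowest of them, at 1.1 to 4.01 CPM, and MUC1 stood at 13.5 to 43.7 CPM. Of 13 markers of fibroblasts, blood, vessels and acinar cells, 4 had enough reads to be tested, and among these LUM reached 335 to 592 CPM while DCN, CD14 and VWF stayed under 1 CPM. Replicate A of hypoxia siARNT stood apart in the retention data, with 253 introns over 300 nt at 0 spliced reads against 367 to 597 in the other 11 libraries and a fitted sample weight of 0.442 against 0.755 to 1.33.

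The introns over 300 nt lay in 1304 host genes. A single intron came from 839 of these genes, 2 from 253 and 3 or more from 212, and 1282 introns overlapped another one of the set, so they are not independent. Lengths reached 12902 nt, with a median of 724 nt and quartiles of 456 and 1249 nt. The median intron had a mean of 89.8 reads per library (quartiles 45.1 and 215). For 951 introns the mean number of spliced reads was under 5, which leaves PSI high with limited room to show a rise. On both sides of the length limit PSI was high: the introns just inside it, in CENPT and AHCYL2 (1 nt above it), had mean PSI of 81.8% and 89.1%, and the introns just outside it, in ACTMAP and KCNN4 (300 nt), had 96.1% and 89.7%.

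At most of these sites unspliced coverage outweighed the reads spliced exactly at the ends of the event. Reads spliced at other, overlapping junctions are not in that count, so a high PSI need not mean that most RNA kept the intron. Examples picked after their values were seen are from normoxia siControl. In ARPC2 overlapping introns of 451 and 462 nt had PSI of 78.1% and 16.3%, with coverage at 52.7% and 53.2% of the flanking exons. In NASP (2173 nt) PSI was 95.2% and coverage 12.6%. The median of the mean PSI was 92.1% (quartiles 65.2% and 97.8%). A mean PSI under 25% was seen for 185 introns and one of 99% or more for 347. Among introns of up to 300 nt, 562 of 2105 (26.7%) reached 99%, against 14.3% of the longer ones, and the median was 95.2%. By length class the median PSI was 91.9% for 739 introns of up to 500 nt, 91.7% for 854 from there to 1000 nt, 92.1% for 568 from there to 2000 nt and 93.2% for 272 above 2000 nt. The median SD of PSI within a group was 2.49 percentage points.

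The level differed with what the annotation holds at the site. At an annotated intron of the host gene, 1579 events could be placed, and their median PSI was 84.5%. Another 309 could be placed only inside an annotated exon, with a median of 98.3%, and 545 could not be placed, with a median of 96.4%. Of the 1579, 1265 also lay inside an exon of another transcript, with a median of 87.8%, and the 314 that lay in no annotated exon had a median of 60.9%. Introns between coding exons had the lowest median, 63.6% (849 introns), against 86.4% in 5′ untranslated regions (140), 90.2% in 3′ untranslated regions (289) and 93.6% in noncoding transcripts. These are descriptions of sites that share host genes and libraries, with no test. The histograms of PSI by placement show that low values came mainly from annotated introns.

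**Figure D1:**
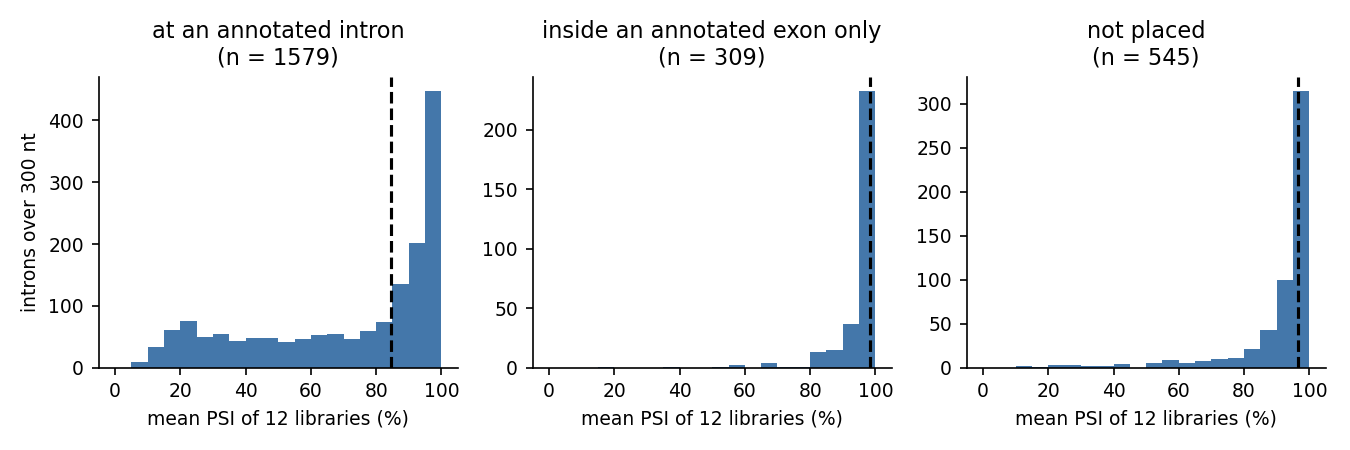
Histograms of the mean PSI over 12 libraries (x axis, percent) of introns over 300 nt (y axis, number of introns), for 1579 at annotated introns, 309 inside annotated exons only and 545 not placed. Dashed lines mark the medians of 84.5%, 98.3% and 96.4%, and values under 50% stand mainly in the first panel.

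The splice sites of annotated introns with a sequence were mostly of the usual kind, which choosing them by annotation partly fixes in advance. Of 1265 annotated introns with a sequence, 1213 (95.9%) began with GT and ended with AG, 46 had GC and AG, and 1 had AT and AC. Of the 309 events placed inside an exon only, 291 (94.2%) began with GT and ended with AG. Events that could not be placed have no sequence here. The donor started with GTAAG in 21.5% of 297 introns with a mean PSI under 50%, in 17.3% of 387 between 50% and 90%, and in 11.0% of 573 at 90% or more, beside 13.0% of 875 annotated introns of up to 300 nt. GTGAG was found in 23.6% of the first class, in 15.5% of the second, in 18% of the third, in 18.5% of all 1257 and in 17.3% of the shorter introns. Only the transcript strand at the donor was read, and the 2 letter strings cannot overlap. The median share of C and T in the 18 bases before the last 2 was 77.8%, 77.8% and 72.2%. Sequence was known only where a transcript holds the intron inside an exon, which leaves out the 314 introns named above. Of 662 introns between coding bases whose reading frame could be followed, 613 (92.6%) met a stop codon in frame, and 436 met it within 100 nt. The first stop stood 121 nt into the CDCA7 intron, 118 nt into that of ANKRD49 and 24 nt into that of QKI. The ANKRD49 stop rests on the placement by length, and the second way of placing gave another position (above).

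Some genes held many of the introns, among them SEC14L1 with 36 and AHNAK2, which is built of repeats, with 18. In AHNAK2 12 of 18 lengths were whole multiples of 495 nt, against 0.29% of the other introns over 300 nt. In 136 introns (5.59%) spliced reads were 0 in at least 1 library and 50 or more in another, and 74 of them had reads in a single library. Only 10 of the 136 lay at an annotated intron. The share was larger among introns of up to 300 nt, where 269 (12.8%) did this. The EEF1A1 event of 406 nt is an example: EEF1A1 encodes the translation elongation factor that brings aminoacyl-tRNA to the ribosome, the mean was 66300 reads per library, and 218 spliced reads appeared in hypoxia siControl C and 0 in the other 11 libraries. RPL7 (365 nt) had 958 spliced reads in normoxia siControl A alone and RPS27 (429 nt) 499 in normoxia siARNT A alone. EEF1A1 and these ribosomal protein genes have near-identical copies in the genome, so the placement of their reads is uncertain.

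At the other end, UROD (330 nt), an enzyme of heme synthesis, had the lowest mean PSI, 7.19%. PSI in UROD was 10.9%, 8.17% and 7.96% with siControl and 6.34%, 3.46% and 5.1% with siARNT in normoxia, and 7.92%, 5.98% and 12.8% with siControl and 9.76%, 4.52% and 3.31% with siARNT in hypoxia (replicates A, B and C throughout). All groups but the normoxia pair overlapped. REX1BD (1174 nt) averaged 7.67% and PPID (803 nt), which encodes cyclophilin 40, 8.14%. Among the longest introns were 3 of AHNAK2 (12902 nt, PSI 94.1%, 10869 nt, 84.5%, and 10395 nt, 85.2%) and 1 of HOOK3 (8934 nt, 90.5%), a protein that links cargo to dynein, each with a mean of 35 to 73 reads.

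The comparison of siARNT with siControl in hypoxia asks which introns depend on ARNT at low oxygen. With limma on the log2 ratio of intron coverage to spliced reads, adjusted over all 4538 events with enough reads, 4 introns over 300 nt fell and 0 rose at an adjusted p under 0.05. Over all events 0.11% were called (0.0881% lower and 0.022% higher). The 4 were in CDCA7, ANKRD49, CYP3A5 and QKI.

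CDCA7, a MYC target that takes part in chromatin remodelling, had an intron of 899 nt with PSI of 51.1%, 45.7% and 46.6% in normoxia siControl and 27.1%, 16.2% and 31.8% in normoxia siARNT. In hypoxia it was 53.9%, 55.6% and 52.1% with siControl and 28.0%, 18.9% and 20.8% with siARNT. All siARNT libraries lay below all siControl libraries. The ratio fell by 2.00 on the log2 scale in hypoxia (SE 0.31, adjusted p = 0.0433 in limma), a fall of 31.3 points of PSI, and the difference in normoxia was -1.49 (SE 0.31, adjusted p = 0.186). CDCA7 itself rose, from 42.1 ± 1.05 CPM in hypoxia siControl to 69.8 ± 0.61 in hypoxia siARNT (SD, n = 3; adjusted p = 1.44e-06 in edgeR).

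ANKRD49, an ankyrin repeat protein, had an intron of 1119 nt with PSI of 47.1%, 42.7% and 42.1% with siControl and 36.9%, 34.2% and 32.6% with siARNT in normoxia, and 56.9%, 63.9% and 59.6% with siControl and 37.8%, 30.3% and 36.1% with siARNT in hypoxia. Hypoxia siControl stood above all other libraries. The ratio fell by 1.48 on the log2 scale with siARNT in hypoxia (SE 0.21, adjusted p = 0.0369 in limma). The gene itself stood at 23.2 ± 0.152 CPM there under siControl and at 20.7 ± 1.66 under siARNT (SD, n = 3; adjusted p = 0.278 in edgeR).

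CYP3A5, a drug-metabolising cytochrome P450, had an intron of 1853 nt at chr7:99672680-99674532 with PSI of 35.4%, 36.0% and 35.6% with siControl and 27.8%, 25.6% and 29.2% with siARNT in normoxia, and 40.6%, 42.1% and 42.2% with siControl and 26.9%, 24.5% and 21.8% with siARNT in hypoxia. The 4 groups kept apart except for the 2 siARNT groups, which overlapped. The ratio fell by 1.15 on the log2 scale with siARNT in hypoxia (SE 0.17, adjusted p = 0.0433 in limma). The host gene fell as well, from 464 ± 13.9 to 251 ± 21.5 CPM (SD, n = 3). The gene has 2 other introns that share an end with this one and were picked after their values were seen. At 1617 nt PSI differed by -0.508 points in the same comparison and at 1599 nt by -2.40 points (adjusted p = 0.984 and 0.641 in limma). By intron coverage relative to the exons, a measure described below, each of these 2 fell by 0.61 on the log2 scale (adjusted p = 0.0128 in limma).

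QKI, an RNA-binding splicing regulator, had an intron of 3001 nt with PSI of 16.5%, 10.9% and 14.3% with siControl and 9.65%, 7.34% and 9.76% with siARNT in normoxia, and 23.8%, 20.5% and 27.8% with siControl and 9.92%, 10.8% and 9.19% with siARNT in hypoxia. Hypoxia siControl again stood above all other libraries. The ratio fell by 1.47 on the log2 scale with siARNT in hypoxia (SE 0.23, adjusted p = 0.0433 in limma), while QKI expression was 99.9 ± 9.41 and 97.1 ± 5.23 CPM (SD, n = 3). In the plot of PSI by group the siARNT bars lie below the siControl bars in each of the 4 genes at both oxygen levels. The calls changed with single libraries. When 1 library was left out, ANKRD49 was still called in 5 of 12 cases, QKI in 3, and CDCA7 and CYP3A5 in 2 each, with adjusted p up to 0.12, 0.138, 0.144 and 0.12 in limma and falls on the log2 scale from -2.21 to -1.04. The number of calls was 0 without normoxia siControl A or C, normoxia siARNT A or C, or hypoxia siControl C. It was 1 without hypoxia siControl A or hypoxia siARNT B, and 2 without normoxia siControl B. Without hypoxia siARNT B that call was in none of these 4 introns. Their adjusted p was then 0.137 (CDCA7) and 0.12 (ANKRD49, CYP3A5 and QKI) in limma.

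**Figure D2:**
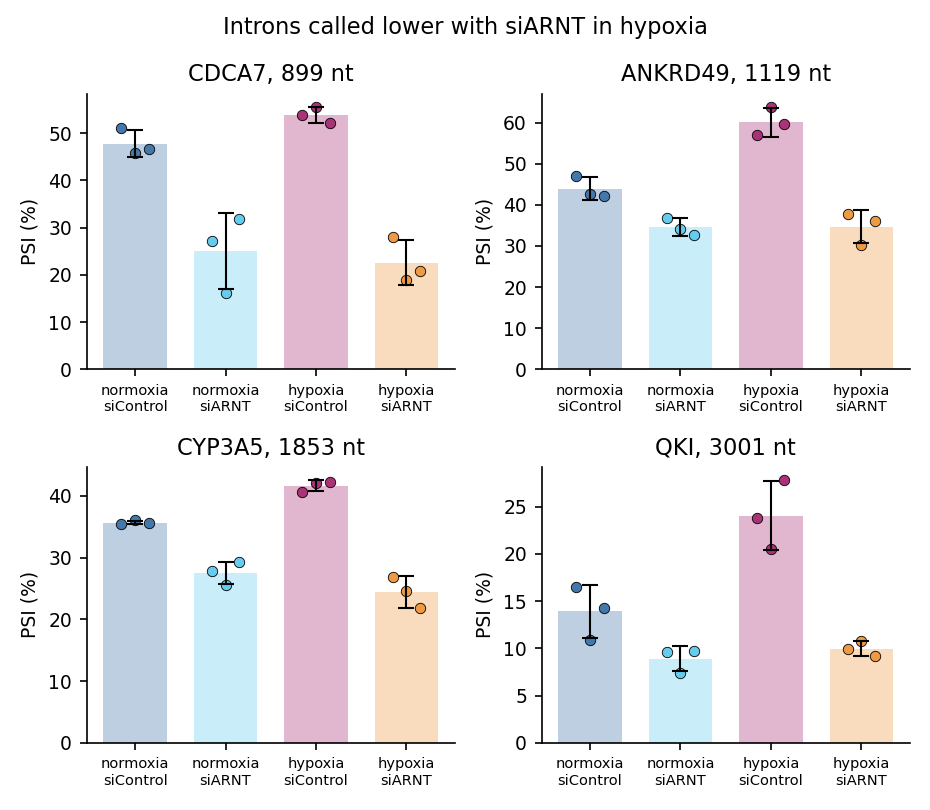
PSI (y axis, percent) of the introns called lower with siARNT in hypoxia, in CDCA7, ANKRD49, CYP3A5 and QKI, by group (x axis). Points are libraries, bars are means and error bars are SD (n = 3), and in hypoxia siARNT no library of CDCA7 exceeded 28.0% while hypoxia siControl was at 52.1% or more.

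Many introns that did not pass the adjusted test leaned the same way. At an unadjusted p under 0.05, 254 introns over 300 nt were lower and 51 higher with siARNT in hypoxia, and 228 were lower and 77 higher with siARNT in normoxia. The background over all events was 8.31% lower and 2.05% higher in hypoxia and 7.8% and 2.8% in normoxia. The groups did not overlap in PSI for 285 introns lower and 106 higher in hypoxia (9.19% and 4.05% of all events) and for 323 lower and 129 higher in normoxia (10.6% and 4.78%). Among introns of up to 300 nt, 123 were lower and 42 higher in hypoxia, 5.84% and 2.0% of them, and among the longer ones 10.4% and 2.1%. The median PSI difference over the introns over 300 nt was -0.599 points in hypoxia and -0.273 in normoxia, and over annotated introns between coding exons -1.53 and -1.68. Library medians of PSI overlapped in hypoxia, with 92.8%, 92.4% and 92.8% under siControl and 91.1%, 92.6% and 92.0% under siARNT. In normoxia they did not, with 92.3%, 92.1% and 92.0% under siControl and 91.4%, 90.3% and 91.6% under siARNT. Both siARNT comparisons have their own control group, but each control group also serves a hypoxia comparison. In siARNT in normoxia 1 intron was called, in RPL10 (below), beside 0.022% of all events.

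Hypoxia in siControl cells gave the opposite lean. At an unadjusted p under 0.05, 188 introns over 300 nt were higher and 50 lower, beside 6.54% and 1.98% of all events (8.53% together). In siARNT cells 120 were higher and 68 lower, beside 4.58% and 2.67% (7.25% together). The groups did not overlap in PSI for 12.4% of these introns higher and 3.66% lower in hypoxia in siControl cells (10.3% and 3.48% of all events), and for 7.48% and 3.66% in siARNT cells (6.85% and 3.02%). The median PSI difference was 0.424 and 0.369 points. By the library medians given above, hypoxia and normoxia did not overlap in siControl cells and overlapped in siARNT cells. At the adjusted threshold 1 intron was called in siControl, again RPL10, beside 0.0661% of all events. In siARNT limma called 0 (0.0% of all events), with 188 at an unadjusted p under 0.05, and edgeR on the same shares called 0, with 118. The difference between the hypoxia changes of siARNT and siControl cells (the interaction) was called for 1 intron (RPL10), beside 0.0441% of all events, with 60 higher and 100 lower at an unadjusted p under 0.05 (2.2% and 3.66% of all events). The share of reads outside annotated genes moved with these groups: it was 9.98% to 10.65% in hypoxia siControl and 7.83% to 9.06% in the other 9 libraries. Its part in the result was not tested.

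**Figure D3:**
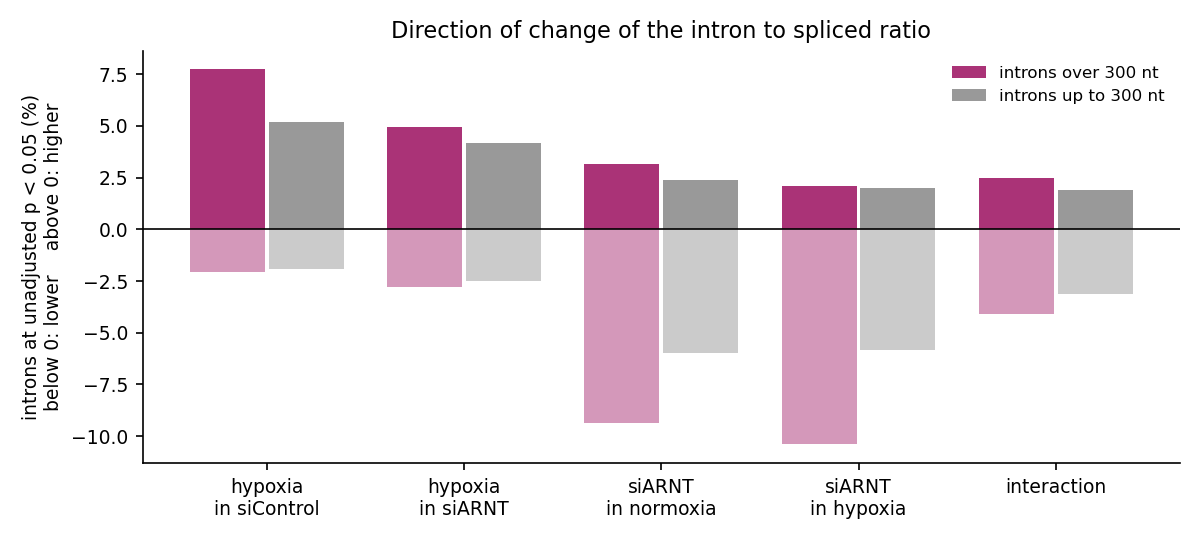
Share of introns (y axis, percent) at an unadjusted p under 0.05 in limma, higher above 0 and lower below 0, in 5 comparisons (x axis), for introns over 300 nt and of up to 300 nt. The longer introns reached 10.4% lower with siARNT in hypoxia and 7.73% higher in hypoxia siControl.

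RPL10, a protein of the large ribosomal subunit, had the lowest adjusted p among the introns over 300 nt in 3 comparisons, through its intron of 406 nt. Spliced reads were 0 in all 3 normoxia siControl libraries, 140, 113 and 71 in normoxia siARNT, 145, 115 and 81 in hypoxia siControl and 98, 99 and 88 in hypoxia siARNT, over an intron depth of 4077 to 8246. PSI was therefore 100% in normoxia siControl and between 97.6% and 98.6% in the other 9 libraries. A count of 0 allows up to 3 reads per library, for counting error only. Whether a 0 here means no spliced read, or a junction not reported for that library, is not known from the sources used here. The ratio was called lower with siARNT in normoxia (adjusted p = 0.000107) and in hypoxia siControl (adjusted p = 7.32e-05 in limma), for PSI differences of -1.51 and -1.80 points. Intron coverage relative to the exons differed by -0.03 on the log2 scale in the second comparison (adjusted p = 0.913 in limma). The other 3 RPL10 introns had spliced reads in 1 library each: 292 in hypoxia siControl C (1305 nt), 228 in hypoxia siControl B (624 nt) and 274 in normoxia siARNT C (667 nt). RPL10 has processed pseudogenes of nearly the same sequence, so the placement of its reads is uncertain.

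Genes of splicing regulators and of the spliceosome held 179 of the introns over 300 nt, in 49 of the 92 genes listed. The list was drawn up with results of these data known and gives no independent evidence of a direction. Their median PSI was 91.1%. In hypoxia siControl 35 (19.6%) were higher and 1 (0.559%) lower at an unadjusted p under 0.05, beside 6.54% and 1.98% of all events, with a median log2 difference of 0.26 beside 0.09 over all events. With siARNT in hypoxia 1 fell at the adjusted threshold (QKI), and 37 (20.7%) were lower and 1 higher at an unadjusted p under 0.05, beside 8.31% and 2.05% of all events, with a median of -0.46 beside -0.22. With siARNT in normoxia 19 (10.6%) were lower and 1 higher, beside 7.8% and 2.8% of all events, with a median of -0.14 beside -0.07, so this share was near that of all events.

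SRSF2, an SR protein that promotes exon inclusion, had an intron of 995 nt in its 3′ untranslated region with PSI of 21.2%, 18.9% and 19.9% with siControl and 14.7%, 11.3% and 15.4% with siARNT in normoxia, and 29.3%, 26.2% and 30.3% with siControl and 21.4%, 18.6% and 16.3% with siARNT in hypoxia. Both oxygen and siRNA separated the groups without overlap, but no comparison passed the adjusted test (lowest adjusted p = 0.176 in limma, siARNT in hypoxia). SRSF7, another SR protein, showed the same order at 875 nt, with 22.0 ± 2.01% under siControl and 14.7 ± 3.61% under siARNT in normoxia, and 29.7 ± 2.86% and 18.5 ± 3.68% in hypoxia (SD, n = 3).

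DDX5, an RNA helicase, had an intron of 1236 nt with PSI of 12.7 ± 0.993% and 12.7 ± 0.766% in normoxia under siControl and siARNT, then 17.7 ± 1.30% in hypoxia under siControl and 13.9%, 15% and 16.2% under siARNT (SD, n = 3). HNRNPDL (1153 nt, 3′ untranslated region), an hnRNP protein, stood at 11.2 ± 1.17%, 12.7 ± 1.75%, 20.2 ± 4.58% and 14.3 ± 1.35% in that order (SD, n = 3). In both genes hypoxia siControl was above normoxia siControl without overlap, and the siARNT groups in normoxia overlapped their controls. Such separation upward was seen in 10.3% of all events. By the ratio to spliced reads, 0 introns of the splicing list passed the adjusted test in limma for hypoxia in siControl.

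RBM39 (1806 nt), a splicing cofactor, was lower with siARNT at both oxygen levels, with 44.0%, 39.3% and 41.8% with siControl and 29.6%, 28.2% and 34.3% with siARNT in normoxia, and 48.6%, 47.0% and 46.2% with siControl and 32.2%, 32.5% and 29.8% with siARNT in hypoxia. The siARNT and siControl libraries did not overlap. The adjusted p was 0.0784 in hypoxia and 0.245 in normoxia in limma. SF3B1 (1839 nt), a core part of the U2 snRNP, was at 19.2%, 22.7% and 15.6% in hypoxia siControl and at 9.50%, 9.52% and 10.4% in hypoxia siARNT (adjusted p = 0.0677 in limma).

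A list of 36 genes with introns known as regulated or detained in other cells shares genes with the splicing list. In 25 of these genes lay 96 of the introns studied here. All introns of a listed gene were counted, so the 96 are not limited to the known introns. Of the 96, 18 (18.8%) were higher and 2 (2.08%) lower in hypoxia siControl at an unadjusted p under 0.05. The shares of all events were 6.54% and 1.98%. With siARNT in hypoxia 13 (13.5%) were lower and 2 (2.08%) higher, beside 8.31% and 2.05%. OGT, which adds N-acetylglucosamine to proteins, has a known detained intron. At 3271 nt its PSI was 57.5%, 53.5% and 56.1% with siControl and 52.6%, 49.9% and 54.8% with siARNT in normoxia, and 67.8%, 65.1% and 70.0% with siControl and 61.2%, 63.4% and 58.2% with siARNT in hypoxia. Hypoxia was above normoxia under both siRNAs without overlap (adjusted p = 0.260 and 0.624 in limma). MAT2A, the enzyme that makes S-adenosylmethionine, had PSI at 635 nt of 42.5%, 42.4% and 42.6% with siControl and 42.6%, 39.1% and 43.9% with siARNT in normoxia, and 49.7%, 50.4% and 53.1% with siControl and 48.5%, 49.2% and 50% with siARNT in hypoxia. The siRNA groups overlapped at each oxygen level, and the adjusted p for hypoxia was 0.429 in siControl.

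**Figure D4:**
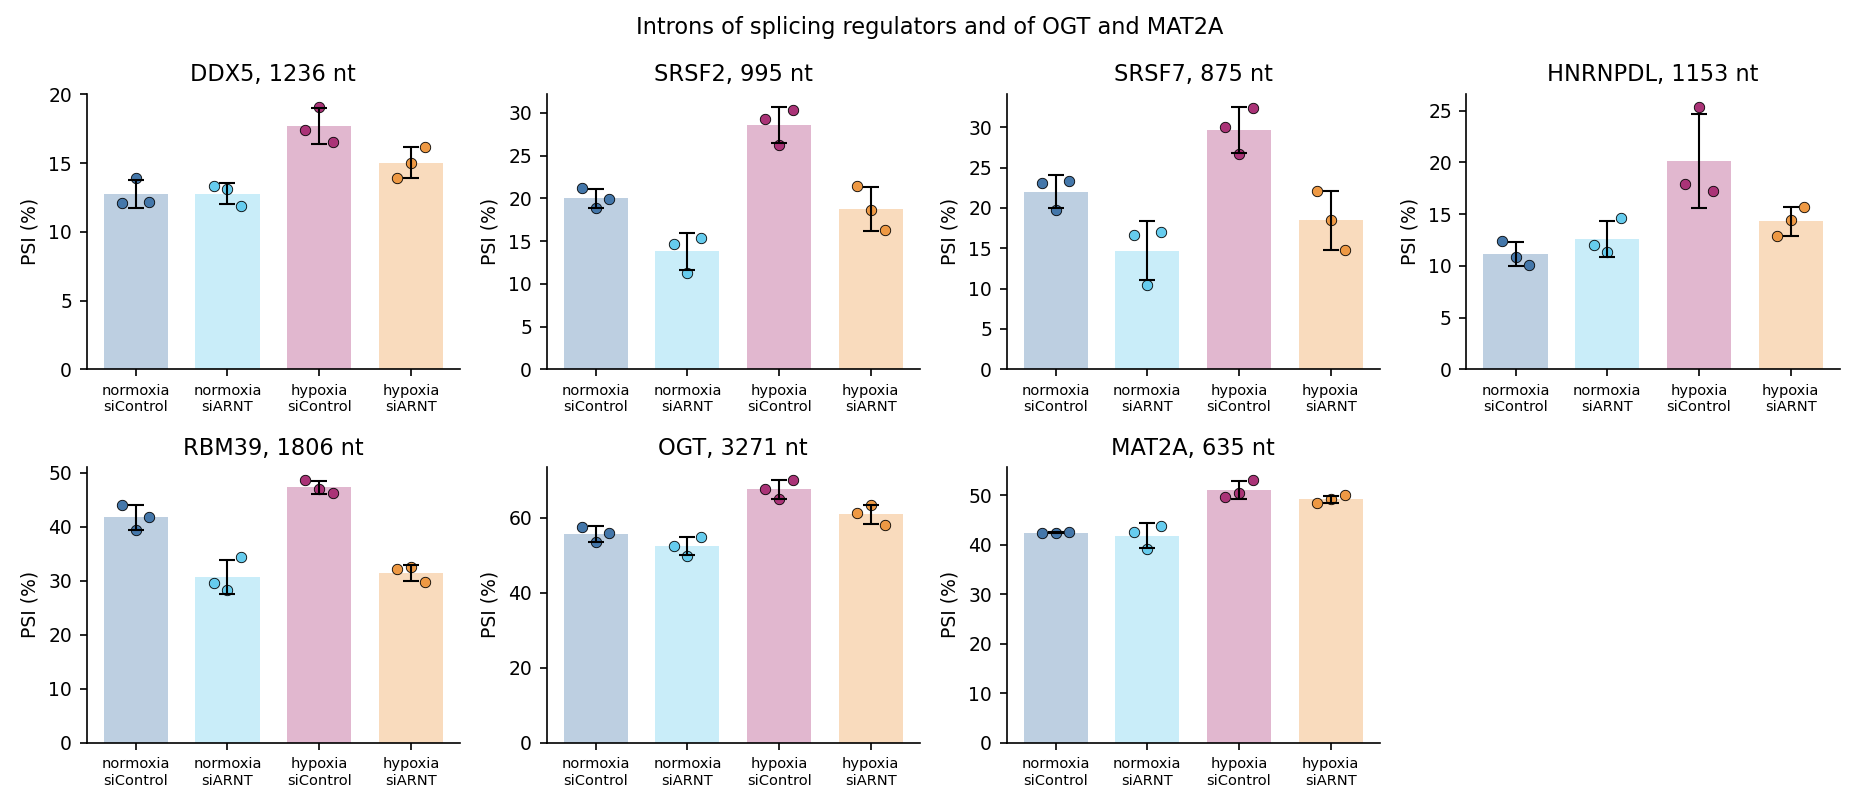
PSI (y axis, percent, each panel with its own scale from 0) of 7 introns in genes of splicing regulators and in OGT and MAT2A, by group (x axis), with libraries as points, means as bars and SD as error bars (n = 3). Hypoxia siControl has the highest mean in each panel, for example 28.6% in SRSF2 and 67.6% in OGT.

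Of HIF target genes, which HIF induces at low oxygen, 3 of 53 listed genes held 8 of the introns. In NDRG1 (1542 nt) intron depth was 4173, 2704 and 2615 in hypoxia siControl against 280 to 538 in the other 9 libraries, while PSI stayed between 96.9% and 99.4% in all 12. WSB1 (861 nt), a ubiquitin ligase subunit, had PSI of 21.1%, 23.2% and 16.6% in hypoxia siControl and 10.7% to 16.6% elsewhere (adjusted p = 0.547 for hypoxia in siControl, limma). PDK1 (1589 nt), a kinase that inhibits pyruvate dehydrogenase, was at 95.1%, 89.2% and 87.4% in normoxia siControl and 79.5%, 83.8% and 84.3% in normoxia siARNT (adjusted p = 0.367 in limma).

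Genes of ribosomal proteins and translation factors held 65 of the introns in 31 genes, with a median PSI of 99.1%, and genes that host small nucleolar RNAs held 35 in 12 genes, with 98.0%. Apart from RPL10, 0 of either list passed the adjusted test in limma in any of 5 comparisons. PSI was below these medians in RPS23 (316 nt), a protein of the small subunit, with 75.6% to 82.0% over the 12 libraries at a mean of 11000 reads, and in EIF4A2 (1242 nt), an RNA helicase of translation initiation, with a mean of 20.3%. The EIF4A2 intron had higher PSI with siARNT in normoxia, with 18.9%, 18% and 19.3% in normoxia siControl and 24.9%, 24.4% and 26.3% in normoxia siARNT, without overlap (adjusted p = 0.305 in limma). DNA repair and cell cycle genes held 10 introns in 8 genes. FANCA (704 nt), of the Fanconi anaemia core complex, was at 32.3%, 50.3% and 30.4% in hypoxia siControl and 13.8%, 15.6% and 18.2% in hypoxia siARNT (adjusted p = 0.0842 in limma). AHR target genes and ARNT held 0 of the introns over 300 nt.

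Spliced reads at 1 junction are few, so intron coverage was also set against the coverage of the flanking exons, which does not use spliced reads. By this ratio 71 introns over 300 nt in 41 genes fell and 1 rose with siARNT in hypoxia in limma, beside 2.05% and 0.0441% of all events, and 16 in 12 genes rose and 0 fell in hypoxia siControl, beside 0.353% of all events. With siARNT in normoxia 3 fell and 1 rose (0.242% and 0.022% of all events), and hypoxia in siARNT gave 0 calls in limma, with 203 at an unadjusted p under 0.05. This ratio and that to spliced reads use the same intron coverage, so agreement in direction between them is partly built in. Of the 71 falls, 61 had a lower ratio of intron to spliced reads too, 36 of them at an unadjusted p under 0.05, and 58 lay at annotated introns. The introns called by the ratio to spliced reads fell here too, by 1.39 (CDCA7), 0.72 (ANKRD49), 0.68 (CYP3A5) and 1.13 (QKI) on the log2 scale (adjusted p = 0.0199, 0.0155, 0.012 and 0.0285 in limma). The splicing regulator list held 24 of the 71, which is 13.4% of its 179 introns, in 12 genes that include SF3B1, RBM39, LUC7L2, SRRM1 and PRPF4B. Several overlapping introns of 1 gene were often called together. The genes below were chosen after their values were seen.

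DSC2, the desmosomal cadherin desmocollin 2, had an intron of 533 nt in its 5′ untranslated region whose coverage was 34.5%, 37.1% and 40.1% of that of the flanking exons in normoxia siControl, 15.5%, 15.6% and 15.8% in normoxia siARNT, 44.1%, 37.6% and 41.6% in hypoxia siControl and 14.0%, 15.7% and 13.5% in hypoxia siARNT. It fell by 1.51 on the log2 scale in hypoxia (adjusted p = 7.59e-05) and by 1.25 in normoxia (adjusted p = 0.00048, limma). PSI of the same intron, from 62.1 reads per library, was 85.2 ± 5.99% and 86.1 ± 3.85% in normoxia under siControl and siARNT, and 89.4 ± 4.52% and 82.3 ± 5.29% in hypoxia (SD, n = 3). DSC2 itself rose with siARNT by 0.93 on the log2 scale in normoxia and by 0.51 in hypoxia (adjusted p = 5.37e-05 and 0.00131 in edgeR). PABPC4 (681 nt), a cytoplasmic poly(A)-binding protein, fell with siARNT from 33.4 ± 2.72% to 16.8 ± 2.78% in hypoxia and from 33.2 ± 5.23% to 17.8 ± 0.71% in normoxia (SD, n = 3).

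HEATR1, a factor of ribosome biogenesis, had a ratio at 1008 nt of 16.3%, 16.5% and 16.0% with siControl and 13.0%, 12.7% and 14.8% with siARNT in normoxia, and 28.2%, 26.2% and 27.1% with siControl and 14.2%, 17.1% and 16.0% with siARNT in hypoxia. It rose by 0.74 in hypoxia siControl (adjusted p = 0.0247) and fell by 0.79 with siARNT in hypoxia (adjusted p = 0.0101, limma). These 2 comparisons share the hypoxia siControl libraries. Expression of HEATR1 moved against the ratio in both. Under siControl it was 182 ± 8.19 CPM at 21% O2 and 126 ± 12.6 CPM at 1% O2. Under siARNT it was 248 ± 14.4 and 226 ± 26.3 CPM (SD of 3 libraries). Whether the ratio moved through the intron or through its flanking exons was not tested. VMP1 (1370 nt), an autophagy protein, was at 13.8 ± 0.28% and 12.0 ± 0.448% in normoxia under siControl and siARNT, and at 22.6 ± 0.412% and 15.9 ± 0.775% in hypoxia (SD, n = 3). It rose in hypoxia siControl and fell with siARNT in hypoxia (adjusted p = 0.0224 and 0.0234 in limma). IFI44 (886 nt), an interferon-induced gene, rose from 12.3 ± 0.0577% to 22.5 ± 0.238% in hypoxia siControl and was 18.9 ± 2.15% in hypoxia siARNT, and RBMX (900 nt), an hnRNP protein, rose from 22.7 ± 1.80% to 32.1 ± 0.798% and was 31.4 ± 0.491% in hypoxia siARNT (SD, n = 3).

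**Figure D5:**
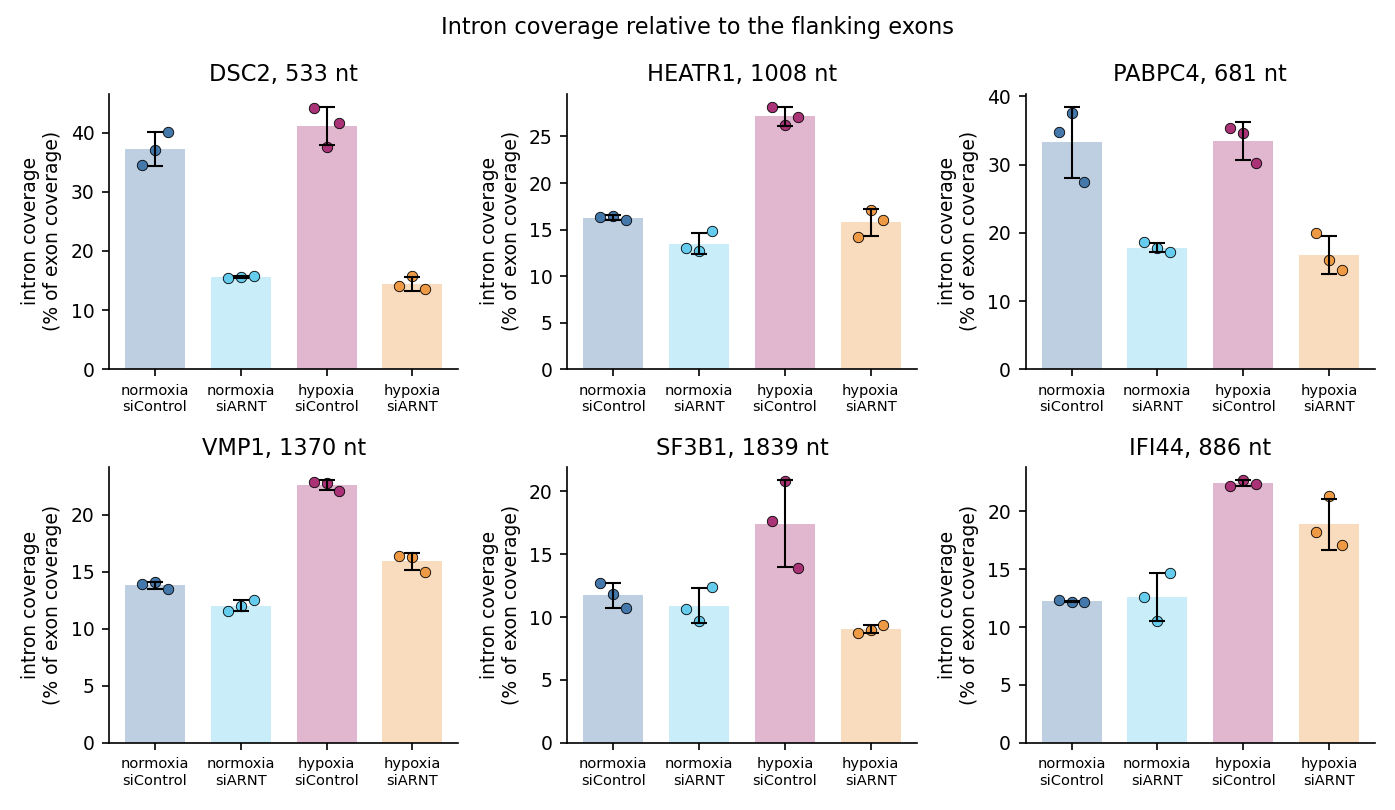
Intron coverage as a percent of the mean coverage of the flanking exons (y axis) for 6 introns, by group (x axis), with libraries as points, means as bars and SD as error bars (n = 3). In DSC2 both siARNT groups lie at 13.5% to 15.8%, below 34.5% to 44.1% with siControl, and in HEATR1 and VMP1 hypoxia siControl is the highest group.

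These counts moved with single libraries. The 72 calls for siARNT in hypoxia became 1 without hypoxia siControl A, 5 without hypoxia siControl B, 11 without hypoxia siARNT B and 22 without hypoxia siControl C, and 96 without normoxia siARNT B. They fell by more than 1.5 times when any of 10 of the 12 libraries was left out. The 16 calls for hypoxia in siControl became 0 without any 1 of the 6 siControl libraries, and fell by more than 1.5 times for 11 of the 12. The 4 calls for siARNT in normoxia ran from 1 to 10 and moved by more than 1.5 times with any of the 12 left out, up without hypoxia siARNT A (7) or C (10) and down without each of the other 10.

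Expression of the host genes was tested beside retention. Of 1284 host genes tested with edgeR, 373 changed in hypoxia siControl (178 up and 195 down), beside 25.3% of all genes tested (10.4% up and 14.9% down), and 56 in hypoxia siARNT (32 up and 24 down), beside 4.09% (2.21% and 1.89%). With siARNT 330 changed in normoxia (150 up and 180 down), beside 20.2% of all genes (9.42% and 10.8%), and 469 in hypoxia (217 up and 252 down), beside 29.1% (14.4% and 14.7%). A difference of the hypoxia change between the siRNAs was called for 61 host genes, beside 4.69% of all genes.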

How the data were processed

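The authors deposited gene counts per library and a table of intron retention events with, per the file headers, PSI as a fraction, intron coverage as a signal (mean read depth), flanking exon coverage as a signal, and spliced reads as counts. The submitters' processing notes name Trimmomatic, STAR 2.4.2a and GRCh38.p10; the event caller is not given in the sources used here. The table's PSI was recomputed from coverage and spliced reads, and 100% of values matched within 0.01. PSI is missing in the table near or below 10 reads (32 values in these introns), where the recomputed value was used. Reads in no gene, ambiguous or not unique (22.71 to 25.2%) stayed out of library sizes.

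The log2 ratio of intron coverage plus 0.5 to spliced reads plus 0.5 was fitted with limma 3.58.1 (R 4.3.3, trend, robust) to all 12 samples with 1 mean per group, for 4538 events with at least 20 reads on average, and adjusted by Benjamini-Hochberg within each of 5 comparisons. Host genes were tested with edgeR 4.0.16 (TMM, quasi-likelihood). Fits were tested on simulated data. The introns and gene lists were chosen with earlier results of these data known. Named introns are the called ones, the 6 highest and 3 lowest in PSI, the 5 longest, the 3 best covered and, in each list, the best covered per gene, up to 8; not all of these are printed, and some results are not reported here. Introns were placed in GENCODE 29 by gene ID and lengths. Alternatives tried: other pseudocounts, read minimums, PSI itself, coverage ratios, edgeR on shares, DESeq2 1.42.0 for genes, blocks, sample weights and each library left out. Intervals for counts were not computed, and a count of 0 allows up to 3 reads, for counting error only.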

Additional observations from a re-analysis of the deposited data

Results flagged for a closer look

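The RPL10 intron of 406 nt was the single intron over 300 nt whose hypoxia change differed between siARNT and siControl by the test of that difference (log2 7.06, SE 0.75, adjusted p = 0.00547 in limma, n = 3 per group). The size depends on the pseudocount, because spliced reads were 0 in the 3 normoxia siControl libraries, and the mean PSI difference behind it is 1.17 points. Without the introns that have 0 spliced reads in some libraries and at least 50 in others, the interaction had 0 calls in limma.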

How the results depend on the processing

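Calls of introns over 300 nt were few. Their number moved (from 0, or by over 1.5 times) in 15 of 26 alternatives for siARNT in hypoxia, 12 of 27 for hypoxia in siControl, 4 of 27 for hypoxia in siARNT, and 11 of 26 for siARNT in normoxia and for the interaction. In the order hypoxia in siControl, siARNT in normoxia, siARNT in hypoxia and interaction, the main counts were 1, 1, 4 and 1, and 0 for hypoxia in siARNT. edgeR on shares gave 0 in all 5, with 172, 237, 187 and 107 at an unadjusted p under 0.05, and 118 for hypoxia in siARNT. A minimum of 50 reads gave 4, 6 and 16 in the first 3, and 2 for hypoxia in siARNT. PSI in limma gave 3, 0, 12 and 0, and intron to exon coverage 16, 4, 72 and 0. A pseudocount of 5 gave 2 for hypoxia in siControl and 8 for siARNT in hypoxia. Fits to the compared samples only gave 4, 3 and 1, and sample weights gave 4 for hypoxia in siControl. With the compared samples only, CDCA7, ANKRD49, CYP3A5 and QKI were not called for siARNT in hypoxia (adjusted p = 0.105, 0.239, 0.298 and 0.19 in limma). A limit of 500 nt, or leaving out introns with 0 spliced reads in some libraries and at least 50 in others (chosen after seeing the data), gave 0 for hypoxia in siControl, siARNT in normoxia and the interaction. With 1 library left out the counts ran from 1 to 4, 1 to 3, 0 to 5 and 1 to 2, and from 0 to 4 for hypoxia in siARNT. The introns called in the main test, in RPL10, CDCA7, ANKRD49, CYP3A5 and QKI, did not reverse under the alternatives run for them. With PSI itself in limma the RPL10 intron was not called. Its adjusted p was then 0.139 for hypoxia in siControl, 0.188 for siARNT in normoxia and 0.826 for the interaction (limma). Other named introns were compared only with the coverage ratio, where AHNAK2 (10395 nt), not called with siARNT in normoxia, stood at -3.65 by spliced reads and 1.01 by coverage on the log2 scale. The RPL10 intron of 406 nt is outside the limit of 500 nt and among the introns left out; the cause of the other moves was not tested. Groups of 3 and few spliced reads limit these tests.

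Same-lettered samples did not deviate together (18 pairs, correlations from -0.048 to 0.083), and whether a letter marks a shared well is not known from the labels. With a replicate block, siARNT in hypoxia and the interaction had 0 calls, with 292 and 153 at an unadjusted p under 0.05, so CDCA7, ANKRD49, CYP3A5 and QKI were no longer called; the other 3 counts did not change. With the same block the coverage ratio called 1 intron for hypoxia in siControl, 9 for siARNT in normoxia and 30 for siARNT in hypoxia. With a well block the interaction had 0 calls. Host genes called with 1 library left out ran from 246 to 486 for hypoxia in siControl, 5 to 56 for hypoxia in siARNT, 164 to 406 for siARNT in normoxia, 341 to 565 for siARNT in hypoxia and 23 to 87 for the interaction, and DESeq2 called 86 for hypoxia in siARNT.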
